A study of Mus musculus with 9 samples.

Results

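Transcripts of 9 complement genes were followed in microglia, the resident macrophages of the brain, of a mouse model of neuromyelitis optica. The genes were taken by symbol from count tables of 23238 gene symbols: C1qa, C1qb and C1qc, which encode the chains of C1q, the components C3 and C4b, the factors Cfb and Cfp, and the receptors C3ar1 and C5ar1. All 9 were found in each table and all 9 passed the filter on low counts, among 12292 genes tested. The libraries came from the brains of female wild-type C57BL/6N mice aged 12 weeks, and cells positive for CD45, CD11b and P2ry12 were sorted on day 1, with 3 libraries in each group and a pool of 3 mice behind each library. Normal mice were untreated. NMO mice received NMO-IgG, patient antibody against the astrocyte water channel aquaporin-4, together with human complement by injection into the right striatum. NMO+CL mice received the same injection and, 6 h before it, clodronate liposomes into the peritoneum, which deplete circulating monocytes and macrophages. The 9 libraries include no group with control IgG or with empty liposomes. Antibody, complement and needle therefore cannot be told apart in NMO, nor clodronate and liposome in NMO+CL.

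Complement is a cascade of plasma and tissue proteins that marks targets for removal. C1q binds antibody or other surfaces and starts the classical pathway, C4 and C3 are cleaved and attach to the target, and factor B and properdin, the products of Cfb and Cfp, build and hold the alternative pathway convertase that cleaves more C3. The released fragments C3a and C5a act on the G protein-coupled receptors encoded by C3ar1 and C5ar1, which myeloid cells use to sense nearby complement activation. In the brain, C1q is made largely by microglia, and aquaporin-4 antibodies of neuromyelitis optica damage astrocytes through complement. The injected complement was human protein, whereas the transcripts counted here are those of the mouse genes.

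The C4b count needs its sequence beside it, because C4a, a close copy of C4b, lies in the same cluster and reads with multiple alignments had been counted. C4b lies at chr17:34728380-34743882 and C4a at chr17:34809092-34823464, both on the minus strand, with 65209 bases between them (GRCm38, GENCODE M21). The libraries read the 3′ ends of transcripts with reads of 75 bases. Over the last 500 bases of the longest annotated C4b transcript, 489 of 499 aligned bases matched a C4a transcript, an identity of 98.0%, and 113 of the 426 windows of 75 bases (26.5%) occurred unchanged in a C4a transcript. Within the coding part of C4b in that tail, the stretch of 75 bases with the most differences held 3, which are in capitals below. This stretch spans exons 38 and 39 of 41 in each gene, and C4a is annotated as a processed transcript. It lies at chr17:34729218-34729426 in C4b and at chr17:34809929-34810137 in C4a, each span holding an intron, and both are written 5′ to 3′ along the transcript.
C4b: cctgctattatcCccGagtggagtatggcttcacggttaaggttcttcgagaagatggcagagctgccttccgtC
C4a: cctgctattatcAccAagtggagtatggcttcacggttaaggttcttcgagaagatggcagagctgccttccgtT
A read from this stretch is told apart by at most 3 bases, so the counts of both genes are given below separately and as a sum. A read that aligned to both genes may have been counted in each, and the sum would then hold it more than once.

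C3ar1 and C5ar1 were both higher after injection in these data, and the sequence before their starts is shown for that reason. RefSeq promoter sequences (GRCm38.p6) were at hand for 6 of the 9 genes, namely C1qb, C1qc, C3, Cfp, C3ar1 and C5ar1. Below are the 250 bases before each receptor's start, on the minus strand at chr6:122856158-122856407 for C3ar1 and chr7:16259339-16259588 for C5ar1, with GGAA or TTCC in capitals, the core letters that PU.1 and other ETS factors of myeloid cells recognise on either strand.
C3ar1: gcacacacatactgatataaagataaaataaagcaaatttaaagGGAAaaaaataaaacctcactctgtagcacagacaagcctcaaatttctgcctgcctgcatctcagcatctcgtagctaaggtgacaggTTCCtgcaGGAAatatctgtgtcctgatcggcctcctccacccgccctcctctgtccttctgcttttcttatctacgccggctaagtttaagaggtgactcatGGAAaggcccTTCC
C5ar1: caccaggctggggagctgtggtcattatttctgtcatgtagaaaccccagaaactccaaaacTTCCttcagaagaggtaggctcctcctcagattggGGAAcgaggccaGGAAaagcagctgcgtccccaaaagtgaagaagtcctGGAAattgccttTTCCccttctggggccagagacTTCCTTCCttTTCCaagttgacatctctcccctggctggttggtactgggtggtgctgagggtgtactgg
The core letters occurred 5 times before C3ar1 and 8 times before C5ar1, against a median of 3 in 250 bases over all 32851 promoters. At least 5 were found in 18% of all promoters and at least 8 in 1.45%. The RefSeq starts of C5ar1 and C1qc, and by some bases that of C3ar1, lie inside the genes as GENCODE M21 gives them, so these bases depend on the start chosen. The other promoters held 4 (C1qb), 5 (C1qc), 3 (C3) and 1 (Cfp), and at least 1 match was found in 93.4% of all promoters. Both strands of 300 bases, which add 50 from the start on, were also searched for the longer PU.1 letters GAGGAAG (13.6% of all promoters), the NF-kB consensus (4.51%) and the GAS letters TTCNNNGAA of STAT factors (8.3%). C1qc held the PU.1 letters and the NF-kB consensus, and the other 5 promoters held 0 of these 3 motifs. These are matches of letters, and no binding was measured.

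Counts per library ran from 5788234 to 7837219, of which the ribosomal RNA entry Rn45s took 16.0% to 31.0%. Levels below are CPM, in which each count is divided by the TMM-scaled size of its library (edgeR's trimmed mean method) and given per 1000000 counts. A count of 0 allows up to 3 counts, which is 0.359 to 0.505 CPM by library, and this covers counting error only. P2ry12, a gene of the sort gate, ran from 2055 to 2665 CPM in Normal, 1558 to 1756 in NMO and 266 to 449 in NMO+CL, and Tmem119, another microglial gene, from 2118 to 3451 CPM over all 9 libraries. In such bulk libraries, fewer cells of a type and less RNA per cell cannot be told apart. NMO replicate 2 stood apart, with 26 genes at 0 that had at least 50 counts in each of the other 8 libraries, against 0 or 1 such genes elsewhere. With at least 10 counts in the other 8 it had 66 such genes, NMO+CL replicate 3 had 47, NMO replicate 3 had 30 and the rest 2 to 18. The results are also given without NMO replicate 2 near the end of the text. Differences were tested with edgeR's quasi-likelihood test on all 9 libraries, with Benjamini-Hochberg adjustment over 12292 genes, and called here means an adjusted p under 0.05. Both comparisons with Normal share the Normal libraries, and both with NMO+CL share the NMO+CL libraries.

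**Figure D1:**
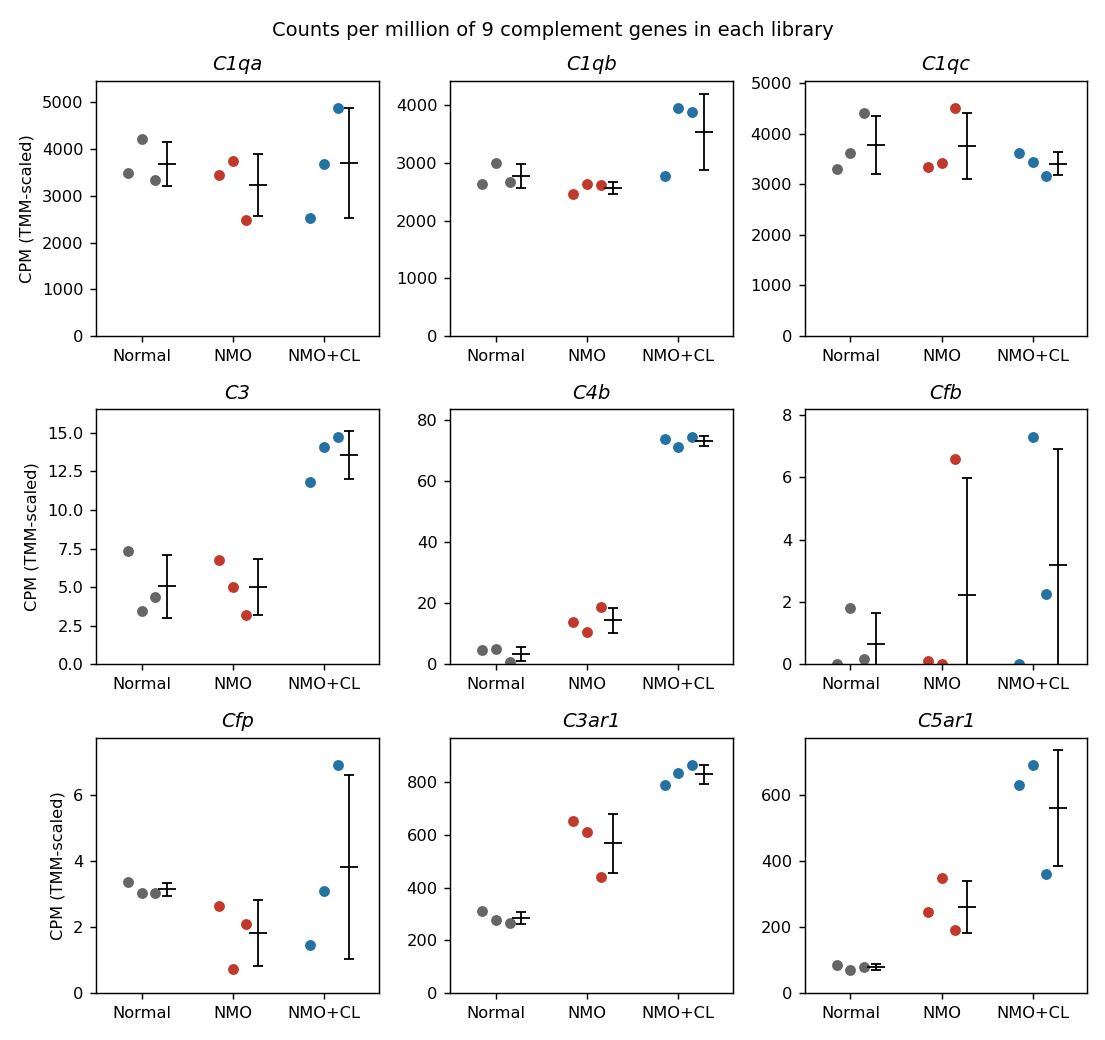
Each panel plots the CPM of one gene on a linear axis from 0, with a point for each library, grouped as Normal, NMO and NMO+CL, and a bar at the mean with the SD (n = 3; the SD is cut at 0 in Cfb). The libraries of C3ar1, C5ar1 and C4b lie in the order Normal, NMO, NMO+CL without overlap, those of the C1q genes overlap between Normal and NMO, and those of C3 lie higher in NMO+CL, without passing the adjusted threshold.

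In NMO against Normal, C5ar1 rose 3.33-fold and C3ar1 rose 2.0-fold, and the other 7 of the 9 genes were not called. Of all genes tested, 0.472% were called higher and 0.0244% lower, and 0 of the 9 were called lower, with 0 lower at an unadjusted p under 0.05, 0 lower by limma-voom and 0 lower by DESeq2. All 3 NMO libraries lay above all 3 Normal libraries for 3 of the 9 genes, C4b, C3ar1 and C5ar1, as they did for 9.21% of all genes tested. The median log2 fold change of the 9 was -0.01, the same as over all genes tested.

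In NMO+CL against NMO, C4b rose 5.07-fold and C5ar1 rose 2.15-fold, with 0 of the 9 called lower (0 at an unadjusted p under 0.05, 0 by limma-voom and 0 by DESeq2). The background was 0.529% of all genes called higher and 1.07% lower. All NMO+CL libraries exceeded all NMO libraries in 5 of the 9, C1qb, C3, C4b, C3ar1 and C5ar1, and in 7.89% of all genes. The median log2 fold change was 0.55 for the 9 and -0.01 for all genes.

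In NMO+CL against Normal, C4b rose 21.1-fold, C5ar1 7.14-fold and C3ar1 2.92-fold, and the C1q chains, C3, Cfb and Cfp were not called. Here 4.79% of all genes were called higher and 4.43% lower, so 3 of 9 higher stand beside a wider background than in the other comparisons, and 0 of the 9 were called lower (0 at an unadjusted p under 0.05, 0 by limma-voom and 0 by DESeq2). The libraries of the groups did not overlap for 4 of the 9, C3, C4b, C3ar1 and C5ar1, all higher in NMO+CL, as in 13.8% of all genes. With the study's own thresholds, at least 1.5-fold with p under 0.05 before adjustment, 3, 3 and 4 of the 9 were higher in the 3 comparisons in the order above, where 5.2%, 4.09% and 9.9% of all genes were.

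**Figure D2:**
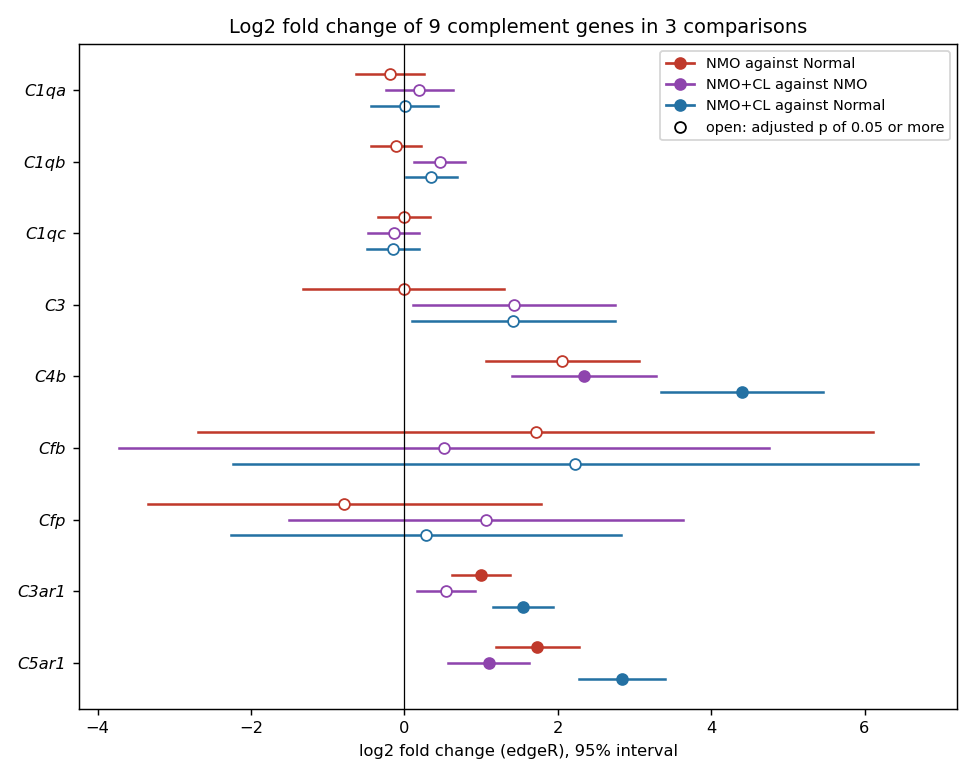
Points give the log2 fold change of each gene in 3 comparisons, marked by colour, with the 95% interval as a line, and filled points passed an adjusted p of 0.05. The 7 filled points belong to C4b, C3ar1 and C5ar1 and lie to the right of 0, while the C1q chains stay within 0.46 of 0 and Cfb and Cfp have wide intervals.

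C1q, the recognition molecule of the classical pathway, is assembled from A, B and C chains, whose genes lie side by side on the minus strand of chromosome 4. C1qb is at chr4:136880129-136886187, C1qc at chr4:136889804-136893065 and C1qa at chr4:136895917-136898803, with gaps of 3616 and 2851 bases. Together the 3 genes took 0.985% ± 0.129 of a Normal library, 0.990% ± 0.061 of an NMO library and 1.07% ± 0.173 of an NMO+CL library (mean ± SD, n = 3). By edgeR, 0 of the 3 were called in any comparison, and C1qb alone had an unadjusted p under 0.05, in both comparisons with NMO+CL. The only call by another tool was that of C1qb by DESeq2, given below.

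C1qa had 3485, 4217 and 3346 CPM in the Normal libraries, 3452, 3752 and 2485 in NMO, and 2524, 3691 and 4873 in NMO+CL. The 3 groups overlapped, and the spread was widest in NMO+CL. Its log2 fold changes were -0.19 (95% interval -0.63 to 0.25), 0.19 (-0.25 to 0.63) and 0.01 (-0.43 to 0.44) in the 3 comparisons in the order above. These intervals leave out a 2-fold change in either direction.

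C1qb had 2626, 3005 and 2673 CPM in Normal, 2453, 2636 and 2611 in NMO, and 2773, 3946 and 3874 in NMO+CL. Every NMO+CL library lay above every NMO library, whereas NMO+CL replicate 1 lay inside the Normal range. The log2 fold change in NMO+CL against NMO was 0.46 (SE 0.16, adjusted p = 0.184 by edgeR), and DESeq2 alone among 18 alternative settings called it (adjusted p = 0.0337, with a range up to 0.515 over the settings). In NMO against Normal the value was -0.11 (adjusted p = 0.941) and in NMO+CL against Normal 0.35 (adjusted p = 0.190).

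C1qc had 3299, 3625 and 4406 CPM in Normal, 3344, 3430 and 4506 in NMO, and 3630, 3445 and 3168 in NMO+CL. The groups overlapped throughout. Its log2 fold changes were -0.01 (95% interval -0.34 to 0.33), -0.14 (-0.47 to 0.20) and -0.15 (-0.48 to 0.19) in the 3 comparisons in the same order.

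Since C1q needs all of its chains, their counts were also compared within each library. The ratio of C1qb to C1qa counts averaged 0.755 ± 0.043 (SD, n = 3) for Normal, 0.821 ± 0.199 for NMO and 0.988 ± 0.167 for NMO+CL. The ratio of C1qc to C1qa was 1.04 ± 0.243, 1.23 ± 0.504 and 1.01 ± 0.399. The 2 ratios and the C4 sum below made 9 exact two-sided permutation tests, in which 3 against 3 libraries cannot go below p = 0.1. The lowest p for a C1q ratio was 0.2 (adjusted p = 0.36), for C1qb to C1qa in both comparisons with NMO+CL. NMO replicate 3 gave the highest ratios in its group, 1.05 for C1qb and 1.81 for C1qc, and it was also the NMO library with the lowest C1qa. Without it, the difference of NMO from Normal changed sign for both ratios, from 0.066 to -0.048 for C1qb and from 0.191 to -0.100 for C1qc.

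C4b, the mouse gene for the C4 that the classical and lectin pathways cleave, had 4.62, 4.97 and 0.673 CPM in Normal, 13.8, 10.8 and 18.7 in NMO, and 73.7, 71.1 and 74.5 in NMO+CL. In counts these were 29, 33 and 4 in Normal, 110, 90 and 117 in NMO, and 505, 439 and 465 in NMO+CL. The 3 groups did not overlap. C4b rose by a log2 fold change of 2.34 in NMO+CL against NMO (SE 0.45, adjusted p = 0.0129 by edgeR) and of 4.40 in NMO+CL against Normal (SE 0.50, adjusted p = 3.72e-05).

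In NMO against Normal the C4b log2 fold change was 2.06 (SE 0.47, adjusted p = 0.0655 by edgeR), and the gene was not called. It was called with library totals (0.0333), without a filter (1.64e-04), by DESeq2 (0.00457) and with C4a added to it (0.0435), over a range of adjusted p up to 0.324 in 18 alternatives. Normal replicate 3, with 4 counts, was the library on which the size rested most, since without it the log2 fold change was 1.57 (adjusted p = 0.16). The call in NMO+CL against NMO was lost without NMO replicate 1 (adjusted p = 0.0592) or NMO+CL replicate 2 (0.0596), at log2 fold changes of 2.33 and 2.36.

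C4a, the mouse gene of the sex-limited protein related to C4, is typed in GENCODE M21 as a processed transcript and not as protein-coding. It had 5, 13 and 6 counts in Normal, 14, 28 and 32 in NMO, and 72, 75 and 90 in NMO+CL. The group means of C4a followed the order of C4b at lower counts. In CPM, however, Normal replicate 2 (1.96) lay above NMO replicate 1 (1.76). It was called in NMO+CL against Normal (log2 fold change 3.28, SE 0.85, adjusted p = 0.0201 by edgeR), but not in NMO against Normal (1.42, 0.637) or between NMO+CL and NMO (1.85, 0.326). The call was lost by limma-voom (adjusted p = 0.054) and without Normal replicate 1 (0.0805), Normal replicate 3 (0.0814), NMO+CL replicate 2 (0.0705) or NMO+CL replicate 3 (0.0587).

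C4a made up 14.7%, 28.3% and 60% of the counts of C4a plus C4b in Normal replicates 1, 2 and 3, against 11.3%, 23.7% and 21.5% in NMO and 12.5%, 14.6% and 16.2% after clodronate. Normal replicate 3, which stood highest, had 10 counts over both genes, and the 3 groups overlapped. Summed over both genes, the level was 4.67 ± 2.70 CPM (SD, n = 3) in Normal, 17.9 ± 5.25 CPM in NMO and 85.4 ± 3.01 CPM after clodronate. For the sum, the exact permutation test gave p = 0.1 in all 3 comparisons, which is the lowest possible with 3 libraries each (adjusted p = 0.3 over 9 tests). How the reads of this sum divide between C4a and C4b, and how many were counted in both, was not tested.

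C3, the central component on which all pathways meet (chr17:57203970-57228136, minus strand), had 7.33, 3.46 and 4.37 CPM in Normal, 6.79, 5.03 and 3.20 in NMO, and 11.8, 14.1 and 14.7 in NMO+CL. In counts, the range was 20 to 54 over the Normal and NMO libraries and 81 to 92 in NMO+CL. Every NMO+CL library lay above the other 6, while Normal and NMO overlapped. The log2 fold changes of 1.43 against NMO (95% interval 0.11 to 2.75, adjusted p = 0.346 by edgeR) and 1.42 against Normal (0.10 to 2.74, adjusted p = 0.187) did not pass the threshold under any of the 18 alternatives. In NMO against Normal the value was -0.01 with an interval of -1.32 to 1.30, which includes a 2-fold change in either direction.

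Cfb, the protease of the alternative pathway convertase (chr17:34856374-34862518, minus strand), had 0, 12 and 1 counts in Normal, 1, 0 and 41 in NMO, and 0, 45 and 14 in NMO+CL. In each group 1 library held most of its counts. Its exons overlap those of Gm20547 on the same strand, so reads there cannot be assigned to Cfb alone. The log2 fold changes had standard errors of 2.01 to 2.12 and none was called, and in NMO against Normal the value ran from -3.08 to 4.46 when 1 library was left out.

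Cfp, which encodes properdin (chrX:20925454-20931555, minus strand), had 21, 20 and 18 counts in Normal, 21, 6 and 13 in NMO, and 10, 19 and 43 in NMO+CL. In CPM all NMO libraries (0.718 to 2.64) lay below all Normal libraries (3.01 to 3.35), and NMO+CL (1.46 to 6.89) spanned both. The log2 fold change in NMO against Normal was -0.78 with an interval of -3.35 to 1.78 (adjusted p = 0.947 by edgeR), and neither other comparison was called.

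C5ar1, the receptor of C5a (chr7:16246743-16259540, minus strand), had 86.1, 70.1 and 79.8 CPM in Normal, 245, 348 and 192 in NMO, and 632, 691 and 362 in NMO+CL. In counts these were 540, 466 and 474, then 1950, 2906 and 1198, then 4330, 4264 and 2258. No library of one group overlapped those of another, although NMO+CL replicate 3 (362 CPM) lay close to NMO replicate 2 (348). C5ar1 rose in all 3 comparisons, by a log2 fold change of 1.73 in NMO against Normal (SE 0.26, adjusted p = 0.00372 by edgeR), 1.10 between NMO+CL and NMO (SE 0.25, adjusted p = 0.0318) and 2.84 between NMO+CL and Normal (SE 0.27, adjusted p = 6.06e-06).

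Both C5ar1 differences from Normal stayed past the threshold in 18 of 18 alternatives, and the adjusted p reached at most 0.0396 for NMO and 1.83e-04 for NMO+CL. Without NMO replicate 2 the rise in NMO was 1.47 on the log2 scale (adjusted p = 0.00879). The difference between NMO+CL and NMO was called in 11 of 18 and was lost with library totals (adjusted p = 0.0522), with only the 2 groups in the fit (0.0973) and without Normal replicate 2 (0.0547), NMO replicate 1 (0.122), NMO replicate 3 (0.106), NMO+CL replicate 1 (0.071) or NMO+CL replicate 2 (0.192). Its log2 fold change stayed between 0.92 and 1.36 over these settings.

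C3ar1, the receptor of C3a (chr6:122847138-122856161, minus strand), had 310.3, 278 and 264 CPM in Normal, 652, 612 and 439.6 in NMO, and 791, 836 and 865 in NMO+CL. In counts these were 1947, 1850 and 1568, then 5188, 5114 and 2746, then 5424, 5160 and 5401. The groups did not overlap, and NMO replicate 3 was the lowest of the injected libraries, as it was for C5ar1. C3ar1 rose by a log2 fold change of 1.00 in NMO against Normal (SE 0.18, adjusted p = 0.0160 by edgeR) and of 1.55 in NMO+CL against Normal (SE 0.18, adjusted p = 4.92e-05). Between NMO+CL and NMO the value was 0.55 (SE 0.18, 95% interval 0.17 to 0.93, adjusted p = 0.161), which DESeq2 alone of 18 alternatives called (0.0159).

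The C3ar1 rise in NMO was called in 13 of 18 alternatives and lost without Normal replicate 1 (adjusted p = 0.0559), Normal replicate 2 (0.109), Normal replicate 3 (0.115), NMO replicate 1 (0.112) or NMO replicate 2 (0.0535), at log2 fold changes of 0.87 to 1.06. The rise in NMO+CL against Normal was called in all 18.

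**Figure D3:**
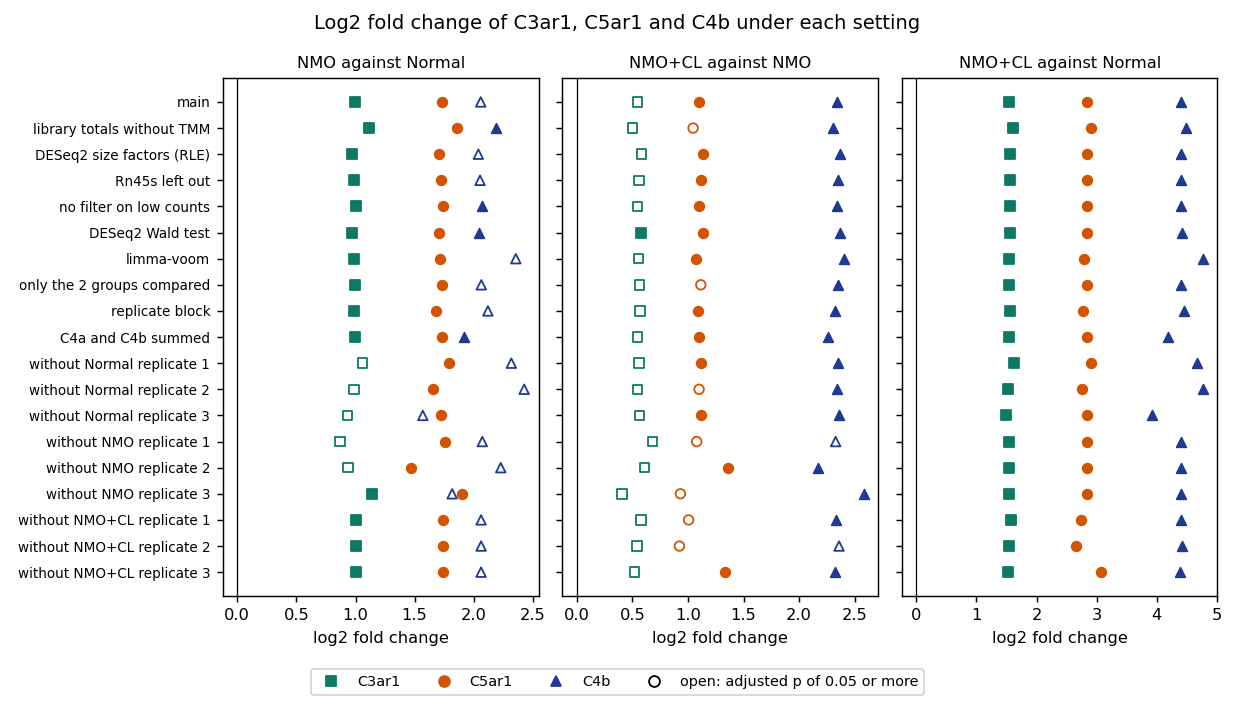
The log2 fold change of C3ar1, C5ar1 and C4b (squares, circles and triangles) is plotted for each of the main and 18 alternative settings, 1 line per setting, with 1 panel for each comparison, and open symbols did not pass an adjusted p of 0.05. All values are above 0, all are filled in NMO+CL against Normal, and most settings leave C4b open in NMO against Normal (14 of 18) and C3ar1 open in NMO+CL against NMO (17 of 18).

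C5ar2, the second receptor of C5a, lies 2588 bases from C5ar1 on the same strand (chr7:16234585-16244154) and was not called in any of the 3 comparisons. It had 99.1, 119 and 123 CPM in Normal, 109, 137 and 51.6 in NMO, and 148, 153 and 151 in NMO+CL. All NMO+CL libraries lay above the other 6, and NMO replicate 3 was the lowest. C5ar2 exons overlap those of Gm26473 on the same strand, so reads there cannot be assigned to C5ar2 alone. The log2 fold changes were -0.19 (adjusted p = 0.937 by edgeR) in NMO against Normal, 0.60 (0.372) between NMO+CL and NMO and 0.40 (0.443) between NMO+CL and Normal.

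The microglial marker list was lower where both receptors and C4b were higher. The summed level of its 12 genes was 35469 to 40337 CPM in Normal, 30720 to 35169 in NMO and 20536 to 28482 in NMO+CL, and 1, 4 and 9 of the 12 were called lower in the 3 comparisons in the order above. The 12 monocyte markers summed to 72.2 to 115 CPM in Normal, 87.3 to 124 in NMO and 67.3 to 178 in NMO+CL, and 1 of 11 tested, Fn1, was called higher, in NMO+CL against Normal. At an unadjusted p under 0.05 by edgeR, 0, 1 and 3 of the 11 were higher in the 3 comparisons and 0 lower. The 3 were Chil3, F13a1 and Fn1, and F13a1 is also on the border macrophage list. The 10 neutrophil markers summed to 101 to 585, 155 to 482 and 299 to 1368 CPM, with 0 of 10 called by edgeR. At an unadjusted p under 0.05, 0 of the 10 passed in NMO against Normal, 1 higher and 1 lower in NMO+CL against NMO, and 2 higher and 1 lower in NMO+CL against Normal.

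The 10 border macrophage markers summed to 308 to 480 CPM in Normal, 215 to 367 in NMO and 433 to 690 in NMO+CL, and 1 of 7 tested, Stab1, was called higher, in NMO+CL against Normal. Stab1 ran from 147 to 195 CPM in Normal, 166 to 204 in NMO and 211 to 383 in NMO+CL, and Cbr2 from 125 to 272, 0 to 159 and 185 to 395 CPM, with the 0 in NMO replicate 2. Mrc1 had 49 to 121 counts in each library, and Lyve1 had 30 to 67 counts in 7 libraries and 0 in NMO replicates 2 and 3. Cd163 had at most 11 counts in Normal and 0 elsewhere, and Clec10a and Folr2 were at 0 in every Normal library. The 10 astrocyte markers summed to 1440 to 2198 CPM, 1105 to 1642 and 794 to 946 in the same order. Most of this sum was Glul, with 1267 to 1980 CPM in Normal, 978 to 1538 in NMO and 708 to 819 in NMO+CL. Gfap was at 0 in every Normal and NMO library and Aldh1l1 at 0 in every Normal and NMO+CL library. Aqp4 averaged 5.06, 8.49 and 7.66 CPM and was not called. Of 7 tested, 3 were called lower in NMO+CL against Normal, Glul, Slc1a2 and Slc1a3. Lymphocyte markers summed to at most 21.6 CPM in any library, with Cd3e at 0 in all 9, and of the endothelial markers, 171 to 262 CPM, Kdr was called higher in both comparisons with NMO+CL. Neuron markers summed to 24.2 to 232 CPM in Normal, 6.58 to 26.6 in NMO and 21.3 to 42.6 in NMO+CL, and 1 of 5 tested, Meg3, was called lower, in NMO against Normal (log2 fold change -3.73, adjusted p = 0.0493 by edgeR). Oligodendrocyte markers summed to 84.6 to 137, 73.0 to 100.4 and 35.7 to 68.9 CPM, and 1 of 4 tested, Cnp, was called lower, in NMO+CL against Normal (-1.23, adjusted p = 0.0258 by edgeR). The part of these cells in the C3ar1, C5ar1 and C4b differences was not tested.

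Around the 9 genes, 50 other complement genes were in the table, of which 23 were tested, 18 had counts but too few to be tested, and 9 were at 0 in every library. The 9 were the lectin pathway genes Mbl2, Fcna and Fcnb, the terminal components C6, C8a and C8b, the regulators C4bp and Cd55b, and the receptor Vsig4. Of the 23, 0 were called by edgeR in NMO against Normal (3 at an unadjusted p under 0.05, of which 1 was higher and 2 lower, 1 called by DESeq2 and 0 by limma-voom) and 0 in NMO+CL against NMO (8 higher and 1 lower at an unadjusted p, 3 by DESeq2 and 1 by limma-voom). In NMO+CL against Normal 3 were called, all higher: C4a, C1qbp and Calr (4 higher and 2 lower at an unadjusted p, 3 by DESeq2 and 2 by limma-voom). Over all genes tested, 4.79% were called higher and 4.43% lower there. The share of all genes at an unadjusted p alone is not given here. By the study's own thresholds, 1, 7 and 3 of the 23 were higher in the 3 comparisons, where 5.2%, 4.09% and 9.9% of all genes were, and 2, 0 and 0 were lower. The median log2 fold changes of the 23 were -0.17, 0.26 and 0.40 in the 3 comparisons in this order, beside -0.01 over all genes tested in each.

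C1qbp, a largely mitochondrial protein that can bind the globular heads of C1q, had 80.2, 75.7 and 54.9 CPM in Normal, 113, 179 and 85.3 in NMO, and 176, 161 and 116 in NMO+CL. The Normal libraries lay below the other 6, and NMO and NMO+CL overlapped. The log2 fold change in NMO+CL against Normal was 1.11 (SE 0.27, adjusted p = 0.0141 by edgeR), and the call was lost without Normal replicate 3 (0.0834) or NMO+CL replicate 2 (0.0544).

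Calr, the endoplasmic reticulum chaperone calreticulin, which at the cell surface can act as a C1q receptor, had 1160, 1229 and 963 CPM in Normal, 1070, 1170 and 1076 in NMO, and 1396, 1781 and 1702 in NMO+CL. All NMO+CL libraries exceeded the other 6. Against NMO, the log2 fold change in NMO+CL was 0.56 (SE 0.16, adjusted p = 0.106 by edgeR), called in 2 of 18 alternatives. Calr rose in NMO+CL against Normal by a log2 fold change of 0.54 (SE 0.16, adjusted p = 0.0424 by edgeR), a call that held in 10 of 18 alternatives, with adjusted p up to 0.188 without Normal replicate 3. It was also lost without Normal replicate 1 (0.0922), Normal replicate 2 (0.0751), NMO replicate 1 (0.0695), NMO+CL replicate 2 (0.183) or NMO+CL replicate 3 (0.0843), without a filter (0.0508) and with only the 2 groups in the fit (0.060).

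Among regulators that were not called, Serping1, the C1 inhibitor, had 25, 46 and 30 counts in Normal, 44, 0 and 11 in NMO, and 110, 157 and 121 in NMO+CL, without overlap between NMO+CL and the other 6 libraries. Its log2 fold changes were 3.05 (adjusted p = 0.122) against NMO and 1.93 (adjusted p = 0.195) against Normal. Hc, which encodes the C5 from which C5a is cut, had 0, 49 and 25 counts in Normal, 1, 0 and 0 in NMO, and 54, 47 and 54 in NMO+CL, and was not called in any comparison (adjusted p = 0.0513 in NMO+CL against NMO).

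Without NMO replicate 2, 1, 2 and 3 of the 9 genes were called in NMO against Normal, NMO+CL against NMO and NMO+CL against Normal. The call lost was that of C3ar1 in NMO against Normal, given above. C4b had log2 fold changes of 2.23 (adjusted p = 0.0682 by edgeR), 2.17 (0.0373) and 4.40 (9.78e-06) in these comparisons, C5ar1 of 1.47 (0.00879), 1.36 (0.011) and 2.83 (5.88e-07), and C3ar1 of 0.94 (0.0535), 0.61 (0.203) and 1.54 (2.25e-05). C1qa, C1qb, C1qc, C3, Cfb and Cfp were not called in any of the 3, and C3 had 1.43 (0.473) against NMO and 1.42 (0.205) against Normal after clodronate. The ratio of C1qb to C1qa counts then differed by 0.126 in NMO against Normal and 0.107 in NMO+CL against NMO, that of C1qc to C1qa by 0.350 and -0.384, and the C4a plus C4b sum by 15.05 and 65.7 CPM.

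Of the other complement genes, 4 were called in NMO+CL against Normal without that library, C4a, C1qbp, Calr and Serping1 (log2 fold change 1.92, adjusted p = 0.0459 by edgeR), and 0 in both other comparisons. Serping1 in NMO+CL against NMO was then 2.46 (adjusted p = 0.113) and C5ar2 0.91 (0.147), and Hc was not called in any comparison. The border macrophage markers summed to 365 to 367 CPM in the other 2 NMO libraries and the neuron markers to 14.3 to 26.6 CPM, and Meg3 was no longer called. Of the microglial markers, 1, 3 and 10 of 12 were then called lower in the 3 comparisons.

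**Figure D4:**
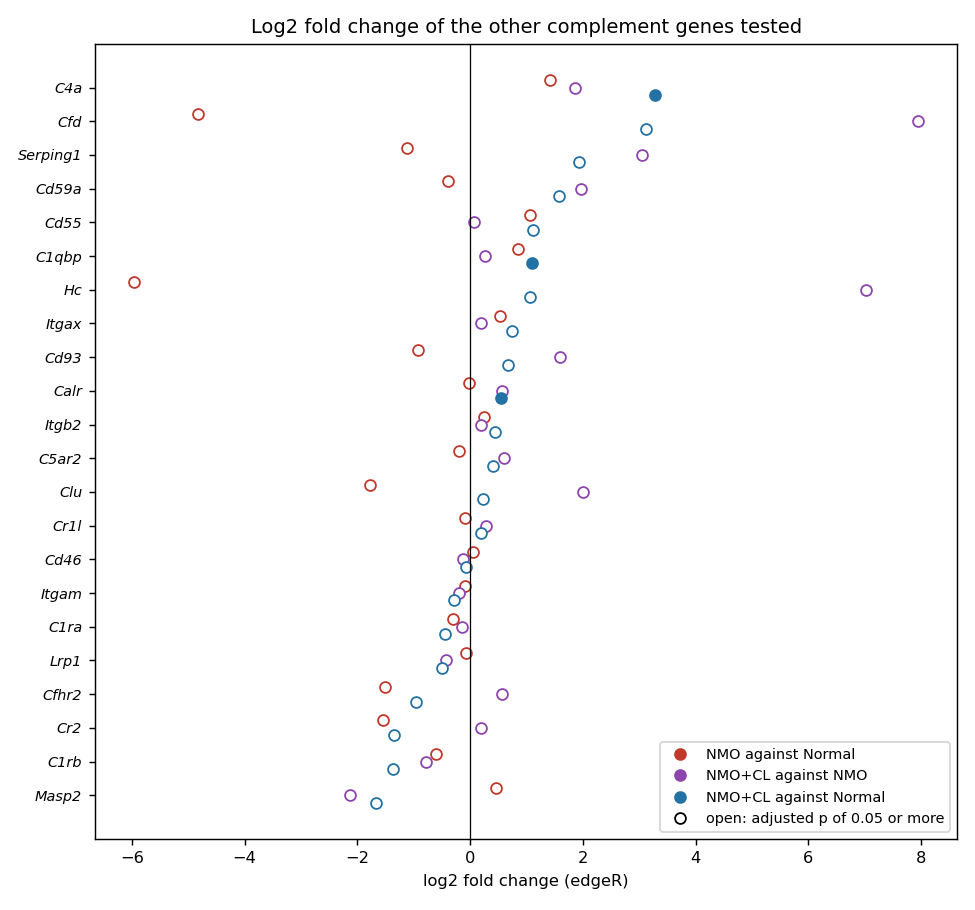
The log2 fold change of 22 of the 23 other complement genes tested is plotted for 3 comparisons, marked by colour, ordered by the value in NMO+CL against Normal, and filled points passed an adjusted p of 0.05. The 3 filled points, C4a, C1qbp and Calr, all belong to NMO+CL against Normal, and the widest values, for Cfd and Hc, come from genes with libraries at 0.

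The genes whose log2 CPM followed each complement gene most closely were taken from those with a mean count of at least 50, over the same 9 libraries. For C5ar1 they were Dab2 (Pearson's r = 0.986), Ctsc (0.985) and Pilra (0.979), for C3ar1 Ftsj3 (0.987) and Mogs (0.981), and for C4b Eprs (0.974), Dnm1l (0.973) and Serbp1 (0.971). For C3 they were 6430548M08Rik (0.976), Gpr35 (0.972) and Pak2 (0.970). The C1q chains did not have each other among their 3 most similar genes, which were Ccl27a (0.971), Tbc1d10a (0.967) and Epn1 (0.960) for C1qa, Kif3b (0.928), Baz1a (0.924) and Ctr9 (0.922) for C1qb, and Plcd1 (0.948), Zfp958 (0.929) and Ncoa6 (0.928) for C1qc. Zcrb1 (0.960) was the first for Cfb and Tbrg3 (0.931) for Cfp. These are the highest of 8840 or 8841 candidates over 9 libraries that fall into 3 groups, and the points share library depth and group, so they are given as a description only.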

How the data were processed

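RNA of sorted microglia from 9 pools of mice had been read as QuantSeq 3′ libraries. Per the labels and the study's methods, the authors aligned single 75-base reads to mm10 with Bowtie2, and bedtools counted unique as well as multiple alignments for each gene. The deposited values are raw counts, not normalized. Annotation, use of strand and versions were not given in the sources used here. Repeated symbols were summed (23238 symbols). Coordinates and transcripts are from GENCODE M21 (GRCm38). Counts were analysed in R 4.3.3 with edgeR 4.0.16 (filterByExpr at min.count 10 and min.total.count 15, TMM, quasi-likelihood F-tests, 1 fit for 9 libraries); alternatives used limma 3.58.1 and DESeq2 1.42.0. Pools of mice were the replicates, 3 per group, whose counts differed by more than counting error (chi-square per degree of freedom 23.2 to 55.5). All 9 genes were described; other complement genes were named when called, C4a always, and C5ar2, Serping1, Hc and the genes listed at 0 were named after their values were seen. A further regulator and 1 gene similar to C3ar1 are not reported here. The genes, lists and tests were chosen with earlier results of these data known. Same-numbered libraries of different groups did not deviate together (r -0.0148 to 0.0302), so numbers were not treated as pairs.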

Additional observations from a re-analysis of the deposited data

How the results depend on the processing

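In NMO+CL against Normal, 3 of the 9 complement genes were called in the main fit and under all 18 alternatives, the same C4b, C3ar1 and C5ar1. In NMO against Normal, 2 were called, 3 with library totals, without a filter, by DESeq2 and with C4a and C4b summed, where C4b was added, and 1 to 2 when 1 library was left out. In NMO+CL against NMO, 2 were called, 1 with library totals, 1 with only the 2 groups in the fit, 4 by DESeq2, and 0 to 2 when 1 library was left out. Of the other complement genes, 0 became 2 without a filter and 1 by DESeq2 in NMO against Normal, 0 became 3 without a filter, 3 by DESeq2, 1 by limma-voom and 0 to 1 with 1 library left out in NMO+CL against NMO, and 3 became 0 to 4 with 1 library left out in NMO+CL against Normal. Over all genes, 61 calls in NMO against Normal became 96 with library totals, 223 without a filter, 224 by DESeq2, 34 with only the 2 groups and 20 to 75 with 1 library left out, and 196 in NMO+CL against NMO became 496, 465, 73 and 51 to 231 under the last 4 of these. The 1134 calls in NMO+CL against Normal became 649 to 1263 with 1 library left out. The causes were not tested, beyond there being fewer libraries in the fits that left some out. With the replicate number as a block, 2, 2 and 3 of the 9 genes were called in the 3 comparisons, and it changed no call of the 9 genes, C4a, C1qbp or Calr; the numbers did not pair the libraries. Leaving out 1 library, the difference in the count ratio of C1qb to C1qa ran from -0.048 to 0.126 in NMO against Normal, 0.107 to 0.281 between NMO+CL and NMO and 0.177 to 0.329 between NMO+CL and Normal, and that of C1qc to C1qa from -0.100 to 0.350, -0.440 to 0.066 and -0.249 to 0.145. The C4a plus C4b difference ran from 10.2 to 15.05, 65.7 to 70.6 and 79.1 to 81.9 CPM. Cfb, Cfp, C3 and C4a had 0 to 92 counts per library, which limits their precision.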
